A study of Cavia porcellus with 30 samples.

Results

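The transcripts described here are the 299 of 25824 listed in guinea pig liver that were raised by the high dose of thioacetamide at both times of sampling, 9 h and 33 h. They were selected on the measured values in TPM, a level per transcript length that is scaled to the same total in each library. The mean of 5 high dose livers, plus 0.1, had to be at least 3 times that of 5 vehicle livers, plus 0.1, at each time. Both high dose means had also to reach 1 TPM. Taken by themselves, the criteria of 9 h were met by 562 transcripts and those of 33 h by 2023, and the 299 are those that met both. The animals were 30 Hartley guinea pigs, an outbred laboratory breed, and no age or sex is used here. There were 6 groups of 5 animals, each animal giving 1 liver library: saline at 3 ml/kg, thioacetamide at 25 mg/kg (the low dose) and thioacetamide at 100 mg/kg (the high dose), each sampled at 33 h and at 9 h. The low dose livers were not used in the selection, and they show whether the same transcripts were raised by the smaller dose and were back at the vehicle level by 33 h. Library totals ran from 21352800 to 33842300 estimated counts.

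Thioacetamide injures the liver through its metabolites. Monooxygenases in hepatocytes convert it to reactive oxides that bind proteins, and cells around the central veins, where those enzymes are most abundant, are the first to die. In rodents the injury is known to be followed by stress and acute-phase responses, by entry of inflammatory cells and by division of the surviving hepatocytes. The deposited tables identify each item by a transcript identifier alone, and no source used here pairs these with genes, so no role can be given to any of the 299 and they are described by identifier. For the same reason the markers of liver and of other cell types were not analysed here. Whole liver was sampled, so a level that differs because there are more or fewer cells of a type and one that differs because each cell holds more or less RNA cannot be told apart. Reads shared between transcripts are divided by the authors' estimate, so the level of a single transcript can move through that division.

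The high dose and vehicle levels chose the members and are given as a description, with no test. The median member stood at 0.763 TPM in vehicle livers, 2.69 TPM in low dose livers and 8.08 TPM in high dose livers at 33 h. At 9 h the corresponding medians were 0.969 TPM in vehicle, 4.92 TPM in low dose and 8.06 TPM in high dose livers. The set ran from rare to moderately abundant transcripts. In all, 166 of the 299 were under 1 TPM in the vehicle livers at 33 h and 152 at 9 h. In contrast, 20 reached 100 TPM in high dose livers at 33 h and 26 did so at 9 h. The ratio of high dose to vehicle had a median of 6.42 at 33 h and 5.90 at 9 h, and 46 members exceeded 10-fold at both times. Summed over all members, the transcripts held 0.105 ± 0.0131% of all TPM in vehicle livers, 0.362 ± 0.188% in low dose livers and 0.894 ± 0.238% in high dose livers at 33 h (SD, n = 5 each). The sums at 9 h were 0.139 ± 0.0172% in vehicle, 0.689 ± 0.148% in low dose and 1.15 ± 0.107% in high dose livers (SD, n = 5 each). The low dose sum was therefore between the other sums at both times, and its standard deviation was larger relative to its mean at 33 h than at 9 h.

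For tests, estimated counts were fitted across all 18239 transcripts that passed a filter on low counts, of which 285 were members. The 14 members left out were rare or short, 9 of them being under 300 bases long. A transcript was called at an adjusted p under 0.05 (edgeR's quasi-likelihood test with Benjamini-Hochberg adjustment over all 18239). Fold changes from this fit are log2 values after TMM scaling, a scaling between libraries that assumes most transcripts are unchanged. The fit called 259 of the 285 higher in high dose than in vehicle livers at 33 h, where 28.2% of all tested transcripts were called higher. At 9 h it called 268, where 13.5% of all tested were. Both counts restate the selection. TMM factors averaged 1.32 in high dose and 0.869 in vehicle livers at 33 h, so at that time a ratio of TPM is larger than the fold change after scaling. The median member was 2.32 higher on the log2 scale after TMM, and applying the selection to TPM divided by the TMM factor left 212 transcripts, 206 of them members.

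**Figure D1:**
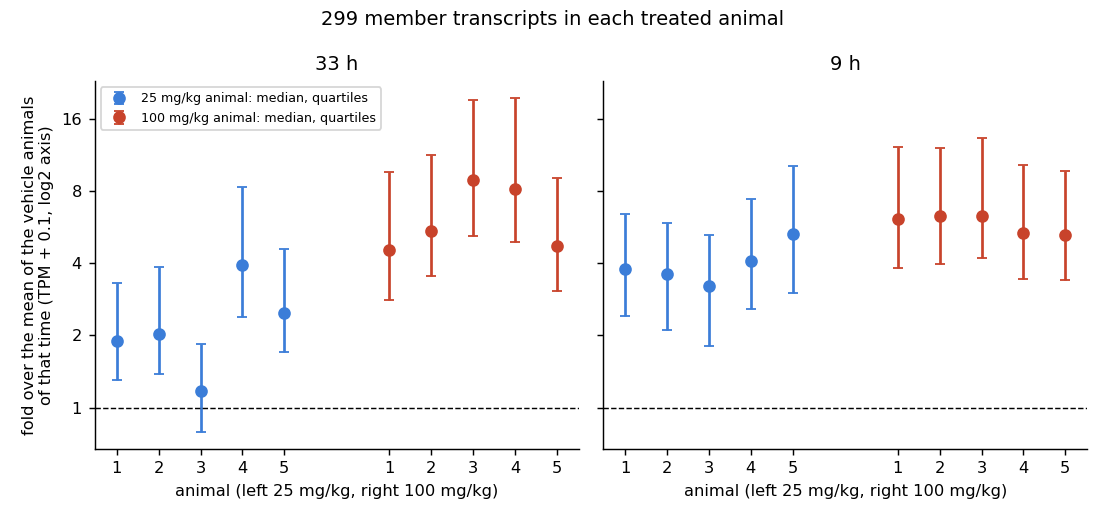
Fold of the 299 members over the mean of the vehicle livers of the same time in each treated animal (TPM + 0.1, log2 axis), 33 h on the left and 9 h on the right, with points for the median and bars for the quartiles over members and a dashed line at the vehicle mean. Low dose animal 3 at 33 h lies nearest the vehicle mean with a median of 1.17-fold, while low dose animal 4 of the same group has a median of 3.95-fold.

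At 9 h the low dose raised most of the set. The median ratio of low dose to vehicle TPM was 4.25, with quartiles of 2.60 and 7.05, and 203 of the 299 reached 3-fold while 13 stayed under 1.5-fold. The fit called 229 of the 285 tested members higher than vehicle at 9 h (edgeR adjusted p under 0.05), against 13.5% of all tested transcripts. The median was 2.15 on the log2 scale for the members and 0.00 for all tested. All 5 low dose livers lay above all 5 vehicle livers in 218 members, where 12.8% of all tested transcripts were separated in this way. None was called lower, by edgeR or DESeq2, and 0 were lower at an unadjusted p under 0.05. The vehicle animals took part in the selection, so these counts are not independent of it.

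At 33 h the low dose livers had returned to near the vehicle level for some members and not for others. The median ratio of low dose to vehicle TPM was 2.43, with quartiles of 1.74 and 4.80. Of the 299, 125 still reached 3-fold and 46 were under 1.5-fold. The fit called 136 of the 285 higher than vehicle (edgeR adjusted p under 0.05), where 14.3% of all tested transcripts were called higher. In TPM, all 5 low dose livers lay above all 5 vehicle livers in 93 of the 285, where 24.5% of all tested transcripts were separated in this way. The vehicle livers of 33 h took part in the selection, so these counts too are not independent of it. The members' median was 0.97 on the log2 scale against 0.03 for all tested. For 68 of the 285 (23.9%), all among the 136 called, the lower 95% bound of the fold change was itself at least 2-fold. Over all tested transcripts the share was 1.44%. Another 52 members were not called and had an upper 95% bound below 2-fold, so a remaining 2-fold rise lay outside the interval that the spread between these animals gives. The other 97 were not called but had bounds reaching 2-fold or more, and for them neither a return nor a remaining rise was shown. These classes, not called with the upper bound below 2-fold and at 2-fold or more, held 66.4% and 19.3% of all tested transcripts. The 52 became 39 to 69 when each low dose or vehicle animal of that time was left out in turn. None was called lower by edgeR or DESeq2, and 0 were lower at an unadjusted p under 0.05. Among the 285, 5 members were at 0 in all animals of a group at 33 h. Of these 4 are among the 136 and 1 among the 52, and with them set at the floor of 3 counts per library the median was 0.96. The 1 among the 52, ENSCPOT00000036303.1, had 0 counts in low dose and 1 count in vehicle livers at 33 h. Its interval therefore shows no return.

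**Figure D2:**
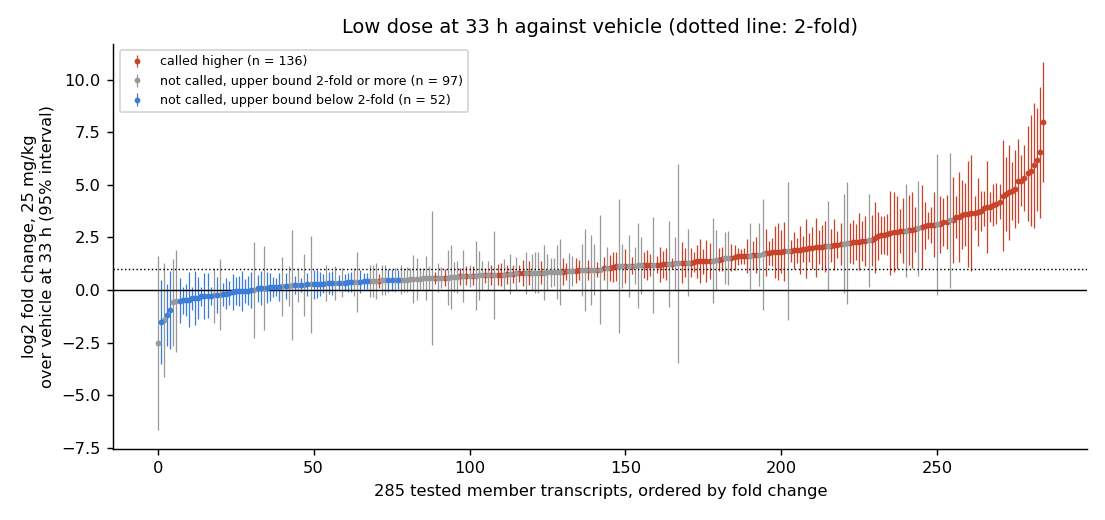
Log2 fold change of the low dose (25 mg/kg) over vehicle at 33 h for each of the 285 tested members, ordered by size, with 95% intervals from the fit; colours mark the 136 called higher, the 52 not called with an upper bound below 2-fold and the 97 not called with a bound at 2-fold or more, and the dotted line marks 2-fold. The uncalled members with narrow intervals lie around 0, and the called ones extend beyond 5 on the log2 scale.

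In all, 121 members were called higher than vehicle at both times after the low dose, 108 at 9 h alone, 15 at 33 h alone and 41 at neither time. Of all tested transcripts 5.35%, 8.17%, 8.95% and 77.5% fell in these classes. A call at one time and not at the other does not show a change between the times, which was tested directly. The difference between the low dose effect at 33 h and at 9 h was called negative, a smaller effect at 33 h, in 79 members, against 5.56% of all tested transcripts. It was called positive in 3, against 5.77% of all tested (edgeR adjusted p under 0.05 in both directions). The median difference was -1.01 on the log2 scale for the members and 0.01 for all tested. This contrast contains the vehicle animals used in the selection.

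The comparison of low dose livers at 33 h with low dose livers at 9 h uses no animal that chose the members. It called 152 of the 285 lower at 33 h, where 12.7% of all tested transcripts were called lower, and 5 higher, where 13.6% of all tested were called higher (edgeR adjusted p under 0.05). The median was -1.17 on the log2 scale, with quartiles of -2.03 and -0.50, against 0.00 for all tested transcripts. In 98 members all 5 livers at 33 h lay below all 5 at 9 h, which held for 3.5% of all tested transcripts. By mean TPM the ratio of 33 h to 9 h had a median of 0.553; it was below 1 in 233 of the 299, at most 0.5 in 134 and at least 2 in 16. Of the 121 members called above vehicle at both times 65 were called lower at 33 h than at 9 h, as were 83 of the 108 called at 9 h alone; over all tested transcripts 26.3% and 68.2% of these classes were called lower. For 41 of the 285 (14.4%) a fall was called, no rise over vehicle was called at 33 h and the upper 95% bound was below 2-fold. This class held 10.4% of all tested transcripts. Of the transcripts called lower at 33 h, it held 41 of 152 members and 1897 of 2313 over all tested.

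Transcripts that met the 9 h criteria but not those of 33 h, 263 in all, were compared in the same way. Of these, 235 were tested and 142 were called lower at 33 h than at 9 h, with a median of -1.38 on the log2 scale, beside 152 of 285 and -1.17 for the members. The difference between these medians was not tested. Expressed as the excess over vehicle in mean TPM, the low dose at 33 h retained a median of 39.6% of its excess at 9 h, with quartiles of 19.1% and 86.0%, over the 295 members with an excess at 9 h. The high dose retained a median of 91.8%, with quartiles of 45.9% and 159%, over 299. That the high dose excess persisted is fixed by the selection. The low dose livers took no part in it, but the vehicle means subtracted from them did. These excesses are in TPM without TMM scaling. Mean TMM factors were 1.09 in low dose and 0.869 in vehicle livers at 33 h, and 0.990 and 0.903 at 9 h.

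The selection fixed a minimum at each time but not the direction between the times, and the high dose livers moved both ways. Their ratio of 33 h to 9 h had a median of 0.891 with quartiles of 0.497 and 1.48, was at most 0.5 in 76 members and at least 2 in 47. Across the 299 members Pearson's r was 0.735 and Spearman's rho 0.741 between the log2 ratios of the doses. The doses share no animal, but transcripts are not independent and the value is a description. The 54 members whose low dose ratio was at most 0.25 had a median high dose ratio of 0.278, and the 66 whose low dose ratio was above 1 had one of 1.96. Removing low dose animal 4 of the 33 h group left 32 members with a low dose ratio above 1, and removing animal 3 gave 77. Vehicle livers were also slightly lower at 33 h than at 9 h for the median member, with a ratio of 0.810 and 222 of 299 below 1.

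**Figure D3:**
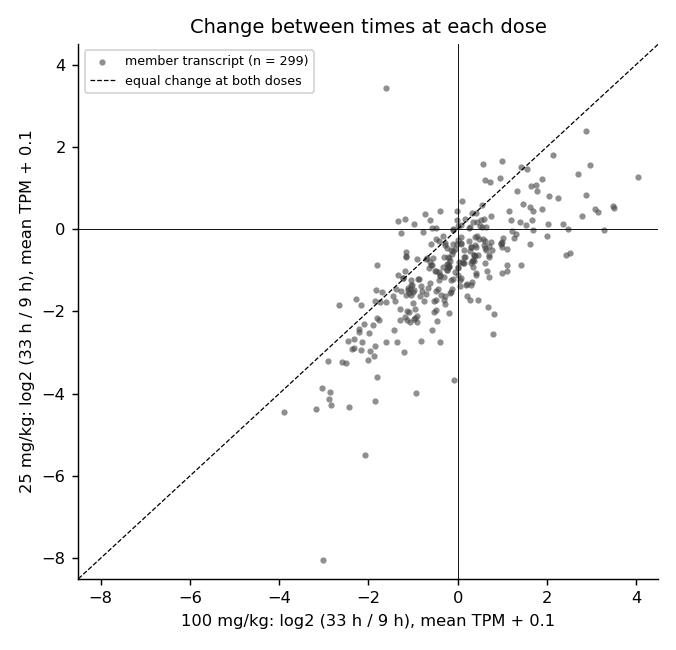
Log2 ratio of mean TPM + 0.1 at 33 h to that at 9 h for each of the 299 members, high dose (100 mg/kg) on the horizontal and low dose (25 mg/kg) on the vertical axis; the dashed line marks equal ratios. Most points lie below the dashed line, and the points run from the lower left, where both doses fell, to the upper right, where both rose.

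The members with the lowest ratio of 33 h to 9 h at the low dose, among those with at least 1 TPM at 9 h, numbered 6 by the naming rule. That ratio named them, so tests of their change between the times are a description. Their low dose effects over vehicle use the same levels and are a description too. All 6 were called lower at 33 h than at 9 h, and against vehicle at 33 h their adjusted p lay between 0.377 and 0.747 (edgeR). ENSCPOT00000027388.2 had 0.523, 0.295, 0.252, 0.198 and 0.479 TPM in the vehicle livers, 0.874, 0.721, 0.446, 0.954 and 0.734 TPM in the low dose livers and 2.52, 2.24, 16.3, 19.8 and 1.51 TPM in the high dose livers at 33 h. At 9 h it had 0.17, 0.453, 0.215, 0.349 and 0.855 TPM in vehicle, 5.3, 10.6, 8.62, 29.8 and 33.5 TPM in low dose and 77.5, 107, 106, 49 and 49.5 TPM in high dose livers. Of the low dose livers at 33 h, animal 3 lay within the range of the vehicle livers and the other 4 lay above every vehicle liver, while high dose animals 3 and 4 stood far above the other high dose animals of that time. The low dose change between the times was -4.83 ± 0.68 on the log2 scale (SE, edgeR adjusted p = 7.18e-06). Against vehicle the low dose effect was 0.68 ± 0.80 at 33 h (SE, 95% interval -0.95 to 2.32, edgeR adjusted p = 0.591) and 5.37 ± 0.71 at 9 h (SE, edgeR adjusted p = 3.10e-06). The difference between the times was -4.69 ± 1.10 (SE, edgeR adjusted p = 0.00561).

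A like course was followed by ENSCPOT00000009801.3, with 0.695, 0.327, 1.23, 0.862 and 0.401 TPM in vehicle, 1.12, 1.04, 0.508, 3.29 and 1.2 TPM in low dose and 3.95, 3.51, 14.2, 11 and 4.99 TPM in high dose livers at 33 h. Its levels at 9 h were 0.407, 1.33, 0.834, 0.925 and 1.07 TPM in vehicle, 21.8, 25.6, 18.6, 32.6 and 55.5 TPM in low dose and 35.3, 47.5, 46.9, 36.1 and 40.5 TPM in high dose livers. All low dose livers at 9 h were above all low dose livers at 33 h, and at 33 h only low dose animal 4 exceeded the highest vehicle animal. The low dose change between the times was -4.73 ± 0.45 on the log2 scale (SE, edgeR adjusted p = 3.44e-08), and the remaining effect over vehicle at 33 h was 0.53 ± 0.48 (SE, 95% interval -0.46 to 1.51, edgeR adjusted p = 0.474). ENSCPOT00000038707.1 averaged 1.39 ± 0.413 TPM in low dose livers at 33 h and 28.7 ± 19.4 TPM at 9 h, against 0.716 ± 0.251 TPM and 1.04 ± 0.315 TPM in the vehicle livers of those times (SD, n = 5 each). Its low dose change between the times was -4.63 ± 0.50 on the log2 scale (SE, edgeR adjusted p = 1.77e-07). For both transcripts the upper 95% bound over vehicle at 33 h exceeded 2-fold, so a return to the vehicle level was not shown.

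Single vehicle animals stood out in the next pair. ENSCPOT00000048469.1 had 1.11, 1.17, 0.322, 1.97 and 2.19 TPM in low dose livers at 33 h and 6.58, 17.1, 10.9, 56.8 and 66 TPM at 9 h. The vehicle livers had 0.632, 0.738, 0.454, 0.495 and 0.287 TPM at 33 h and 0.318, 0.564, 0.961, 15.6 and 1.47 TPM at 9 h. ENSCPOT00000015761.3 had 0.409, 0.159, 0, 0.277 and 0 TPM in low dose livers at 33 h and 8.68, 5.57, 3.87, 18.3 and 23.6 TPM at 9 h, while the vehicle livers had 0.258, 0, 0, 0 and 0 TPM at 33 h and 0, 0, 1.68, 12.9 and 0.283 TPM at 9 h. In both, vehicle animal 4 at 9 h was far above the other vehicle animals and overlapped the low dose livers of its time. The low dose change between times was -4.85 ± 0.92 on the log2 scale for ENSCPOT00000048469.1 (SE, edgeR adjusted p = 0.000269). For ENSCPOT00000015761.3 it was -6.26 ± 1.27 (SE, edgeR adjusted p = 0.000552). The low dose effect of ENSCPOT00000015761.3 at 9 h was not called over all vehicle animals, at 1.90 ± 0.92 (SE, edgeR adjusted p = 0.138), and was 4.44 with an adjusted p of 0.0016 without vehicle animal 4.

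The lowest ratio of all belonged to ENSCPOT00000036303.1, a transcript of only 159 bases. It was at 0 in all 5 low dose livers at 33 h and had 20, 24.1, 19.8, 20.6 and 46 TPM in the low dose livers at 9 h, 104 estimated counts over the group. Computed against the floor of 3 counts per library, it was at least 7.74-fold lower at 33 h (edgeR adjusted p = 1.05e-05). The vehicle livers at 33 h had 1 count over the group, so no fold over vehicle is given at that time. High dose livers at 33 h had 3.47, 2.77, 5.58, 5.02 and 3.38 TPM, and no high dose liver overlapped the low dose livers.

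At the other end, 6 members had the highest ratio of 33 h to 9 h at the low dose, and 4 of them were called higher at 33 h. These 6 too were named for that ratio, so tests of their change between the times and over vehicle are a description. ENSCPOT00000046500.1 had 0.387, 0.211, 0.0715, 0.29 and 0.15 TPM in vehicle, 6.59, 12.6, 0.46, 25.8 and 11.8 TPM in low dose and 10.6, 22.4, 8.85, 13.8 and 18.6 TPM in high dose livers at 33 h. In the livers of 9 h it had 0.333, 0.221, 0.231, 0.339 and 0.474 TPM in vehicle, 3.28, 1.39, 2.4, 1.55 and 1.93 TPM in low dose and 2.41, 2.07, 2.57, 1.29 and 1.43 TPM in high dose livers. All low dose livers at 33 h but animal 3 were above all those at 9 h, and animal 3 was just above the highest vehicle liver. The low dose change between the times was 2.12 ± 0.48 on the log2 scale (SE, edgeR adjusted p = 0.00169), and the effect over vehicle was larger at 33 h by 2.57 ± 0.79 (SE, edgeR adjusted p = 0.0331). Over the 20 fits that each left out 1 low dose or vehicle animal, the second call was lost in 11, with adjusted p up to 0.07, low dose animals 2 and 4 at 33 h being among those whose removal ended it. The first was kept in all 10 fits that each left out 1 low dose animal.

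ENSCPOT00000026201.2 was among the more abundant of these. Vehicle livers had 8.98, 14.8, 5.47, 11.8 and 10.4 TPM, low dose livers 116, 168, 28.7, 609 and 250.3 TPM and high dose livers 346, 483, 285, 403 and 350.1 TPM at 33 h. At 9 h the vehicle livers had 21.2, 15.7, 16.3, 10.7 and 35.9 TPM, the low dose livers 79.5, 66.6, 99.7, 34.2 and 57.2 TPM and the high dose livers 86, 88.4, 59.6, 53 and 139.7 TPM. Low dose animal 3 at 33 h was below every low dose liver of 9 h and animal 4 was above every high dose liver of that time. The low dose change between times was 1.48 ± 0.43 on the log2 scale (SE, edgeR adjusted p = 0.011); without low dose animal 4 at 33 h it was 0.82 with an adjusted p of 0.112. The low dose effect over vehicle was larger at 33 h by 2.36 ± 0.63 (SE, edgeR adjusted p = 0.0154).

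ENSCPOT00000006682.3 had the least scatter of this group, with 5.83, 8.7, 11.5, 9.17 and 8.51 TPM in low dose livers at 33 h, none of them overlapping the 3.63, 1.73, 1.64, 2.72 and 3.93 TPM at 9 h. The change was 1.46 ± 0.25 on the log2 scale (SE, edgeR adjusted p = 8.73e-05), and the low dose livers at 33 h did not differ detectably from the high dose livers, which had 6.07, 12, 13.2, 6.79 and 12.3 TPM (high minus low -0.06 ± 0.24 on the log2 scale, SE, 95% interval -0.56 to 0.43). ENSCPOT00000045740.1 had 6.11, 7.03, 0.899, 16.1 and 8.76 TPM in low dose livers at 33 h and 4.53, 2.85, 3.27, 1.81 and 2.58 TPM at 9 h, so animal 3 alone was below the 9 h livers. Its change was 1.06 ± 0.34 (SE, edgeR adjusted p = 0.021), and 0.69 with an adjusted p of 0.126 without low dose animal 4 at 33 h. The call also ended without low dose animal 4 of the 9 h group, at 0.94 with an adjusted p of 0.0634.

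The high ratio of 33 h to 9 h of the remaining pair rested on a single liver. ENSCPOT00000042913.1 had 1.58, 2.06, 0.217, 15.8 and 2.57 TPM in low dose livers at 33 h and 1.85, 1.02, 0.917, 0.887 and 2.49 TPM at 9 h. ENSCPOT00000038410.1 had 0.694, 1.18, 0.131, 18.4 and 1.83 TPM at 33 h and 3.26, 0.459, 0.717, 2.76 and 1.76 TPM at 9 h. In both, low dose animal 4 at 33 h was far above the other 4 and animal 3 was the lowest, and neither change between the times was called over all animals (edgeR adjusted p = 0.113 for ENSCPOT00000042913.1 and 0.389 for ENSCPOT00000038410.1). The effect of ENSCPOT00000038410.1 over vehicle at 33 h was 2.48 ± 0.82 on the log2 scale (SE, edgeR adjusted p = 0.0253) and 0.41 with an adjusted p of 0.726 without low dose animal 4. Without vehicle animal 3 or 4 its adjusted p was 0.0551 or 0.0609. For ENSCPOT00000042913.1 the effect over vehicle at 33 h was 3.12 ± 0.65 (SE, edgeR adjusted p = 0.000754). It was still called without low dose animal 4 of that time, at 1.77 with an adjusted p of 0.0111. The change of ENSCPOT00000042913.1 between the times was 1.57 with an adjusted p of 0.0244 without low dose animal 3 at 33 h. One more member was called higher at 33 h than at 9 h, ENSCPOT00000023086.2, which falls outside the naming rule and was picked after its values were seen. It had 0.728, 15.2, 0.31, 0.816 and 0.101 TPM in low dose livers at 33 h and 0.222, 0.701, 0.113, 0.073 and 0.033 TPM at 9 h, so the high level was in animal 2 alone. Its change was 3.63 ± 1.20 on the log2 scale (SE, edgeR adjusted p = 0.025) and 0.84 with an adjusted p of 0.615 without that animal. The call was also lost on removing low dose animal 1, 3, 4 or 5 of the 9 h group, with adjusted p between 0.0524 and 0.0615.

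**Figure D4:**
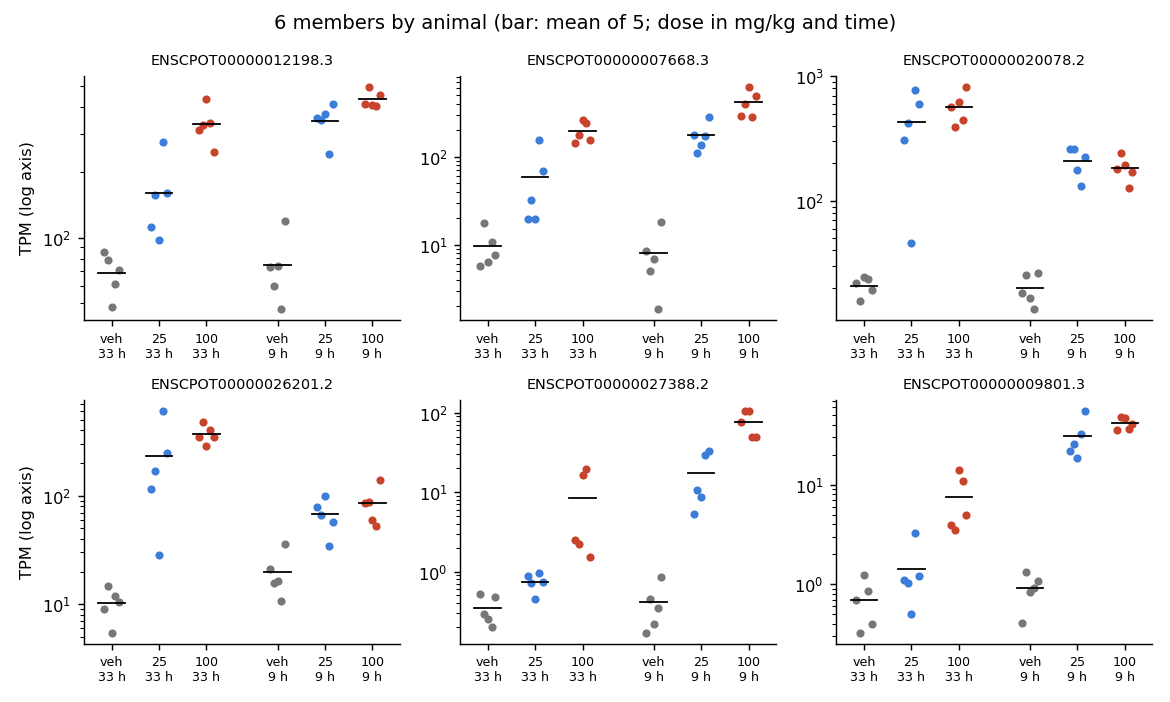
TPM of 6 members in each of the 30 livers (log axis), by dose (vehicle, 25 mg/kg and 100 mg/kg) at 33 h on the left and at 9 h on the right of each panel, with a bar for the mean of 5. The low dose livers of ENSCPOT00000027388.2 and ENSCPOT00000009801.3 are all lower at 33 h than at 9 h, with 4 of 5 above the highest vehicle liver in the first and 1 of 5 in the second, those of ENSCPOT00000020078.2 and ENSCPOT00000026201.2 stay high apart from animal 3, and those of ENSCPOT00000012198.3 and ENSCPOT00000007668.3 lie between.

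The 8 most abundant members in high dose livers followed several courses. All 8 were called above vehicle at 9 h after the low dose, and 6 of them were called above vehicle at 33 h. A fall between 9 h and 33 h was called in 5. ENSCPOT00000020078.2 had 21.8, 15.7, 24.3, 23.5 and 19.3 TPM in vehicle, 310.4, 424, 45.8, 775 and 604 TPM in low dose and 564, 393, 622, 444 and 820.2 TPM in high dose livers at 33 h. The 9 h groups had 18.1, 25.3, 16.5, 13.6 and 26.6 TPM in vehicle, 259.9, 259, 176, 131 and 226 TPM in low dose and 179, 243, 195, 127 and 170.3 TPM in high dose livers at 9 h. No treated liver overlapped the vehicle livers of its time, and at 33 h low dose animal 3 was far below the other treated livers. Its low dose effect over vehicle was 3.88 ± 0.41 on the log2 scale at 33 h (SE, edgeR adjusted p = 2.37e-07) and 3.28 ± 0.40 at 9 h (SE, edgeR adjusted p = 9.18e-07). The change between the times was 0.78 ± 0.35 over all low dose animals (SE, edgeR adjusted p = 0.111) and 1.06 with an adjusted p of 0.00175 without animal 3 of the 33 h group. The ranges of the high and low dose livers overlapped at both times, with a high minus low difference of 0.24 ± 0.35 at 33 h (SE, 95% interval -0.48 to 0.96) and 0.01 ± 0.35 at 9 h (SE, 95% interval -0.72 to 0.73).

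ENSCPOT00000012198.3 and ENSCPOT00000007668.3 fell between the times at the low dose without reaching the vehicle level. ENSCPOT00000012198.3 had 85.7, 79.2, 48.1, 60.8 and 70.9 TPM in vehicle, 112, 157, 97.5, 275 and 160.2 TPM in low dose and 313, 329, 432, 336 and 248 TPM in high dose livers at 33 h. Earlier, at 9 h, it had 73.5, 59.8, 74.3, 46.9 and 119 TPM in vehicle, 355, 346, 370.5, 241 and 409 TPM in low dose and 410.2, 493, 409, 403 and 451 TPM in high dose livers. Every low dose liver was above every vehicle liver at both times, and only low dose animal 4 at 33 h reached into the range of the low dose livers at 9 h. The low dose effect was 0.79 ± 0.20 on the log2 scale at 33 h (SE, edgeR adjusted p = 0.00481), 2.12 ± 0.21 at 9 h (SE, edgeR adjusted p = 3.96e-08) and smaller at 33 h, by -1.33 ± 0.29 (SE, edgeR adjusted p = 0.00312). ENSCPOT00000007668.3 had 5.7, 17.5, 6.39, 10.7 and 7.72 TPM in vehicle, 19.5, 32.6, 19.8, 156 and 68.5 TPM in low dose and 143, 177, 263, 244 and 153 TPM in high dose livers at 33 h. At 9 h the values were 8.48, 4.98, 6.88, 1.87 and 18.3 TPM in vehicle, 174, 111, 134, 172 and 282 TPM in low dose and 287, 398, 619, 283 and 494 TPM in high dose livers. Low dose animals 1 and 3 at 33 h lay just above the highest vehicle liver, whereas animal 4 lay within the range of the high dose livers. The difference of its low dose effect between the times was -2.21 ± 0.68 (SE, edgeR adjusted p = 0.0332). This call was lost in 9 of the 20 fits that each left out 1 low dose or vehicle animal, among them those without low dose animal 5 at 9 h (adjusted p 0.072) and without vehicle animal 2 at 33 h (adjusted p 0.0799).

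ENSCPOT00000034068.1 kept a large rise at 33 h that differed widely between animals. Vehicle livers had 5.67, 6.14, 5.32, 8.19 and 3.21 TPM, low dose livers 78, 96.5, 21, 304 and 183 TPM and high dose livers 299, 302, 392, 460.3 and 289 TPM at 33 h. At 9 h vehicle livers had 8.37, 26.1, 31, 14.7 and 64.8 TPM, low dose livers 349, 381, 361, 323 and 467 TPM and high dose livers 368, 413, 309, 364 and 433 TPM. The low dose livers at 9 h overlapped the high dose livers, and those at 33 h spread from near the vehicle range in animal 3 to the high dose range in animal 4. Its change between the times at the low dose was -1.78 ± 0.42 on the log2 scale (SE, edgeR adjusted p = 0.00224). The vehicle livers were lower at 33 h too, and the difference of the low dose effect between the times was 0.46 ± 0.60 (SE, 95% interval -0.77 to 1.70, edgeR adjusted p = 0.703). ENSCPOT00000022944.2 and ENSCPOT00000013246.3 were not called changed between the times at the low dose, at -0.34 ± 0.40 and -0.19 ± 0.36 on the log2 scale (SE, edgeR adjusted p = 0.595 and 0.755). ENSCPOT00000022944.2 averaged 121 ± 68.7 TPM in low dose and 14.5 ± 2.86 TPM in vehicle livers at 33 h, and ENSCPOT00000013246.3 averaged 73.2 ± 49.1 TPM and 12.3 ± 1.72 TPM in those groups (SD, n = 5 each). In high dose livers at 33 h ENSCPOT00000013246.3 averaged 428 ± 192 TPM, against 82.9 ± 28.8 TPM at 9 h (SD, n = 5 each).

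The other 2 of the 8 were not called above vehicle at 33 h, and their upper 95% bounds over all animals were below 2-fold. ENSCPOT00000024706.2, the most abundant member, had 70.9, 80.2, 88.1, 82.4 and 79.2 TPM in vehicle, 94.3, 73.9, 62.9, 148 and 151 TPM in low dose and 139.6, 158, 402, 499 and 143 TPM in high dose livers at 33 h. At 9 h it had 173, 186, 159, 232 and 111 TPM in vehicle, 255, 316, 268, 499 and 554 TPM in low dose and 1074, 1156, 1765, 1161 and 837 TPM in high dose livers. The low dose livers at 33 h fell on both sides of the vehicle livers, with an effect of -0.03 ± 0.33 on the log2 scale after TMM (SE, 95% interval -0.70 to 0.65, edgeR adjusted p = 0.965), while the ratio of mean TPM was 1.32. At 9 h its effect was 1.04 ± 0.33 (SE, edgeR adjusted p = 0.0205). The call was lost without low dose animal 4 (adjusted p 0.0597), low dose animal 5 (adjusted p 0.0753) or vehicle animal 5 (adjusted p 0.0595) of that time. ENSCPOT00000025525.2 averaged 62.6 ± 31.2 TPM in low dose and 38.2 ± 21.9 TPM in vehicle livers at 33 h (SD, n = 5 each), an effect of 0.27 ± 0.33 on the log2 scale (SE, 95% interval -0.41 to 0.96, edgeR adjusted p = 0.613). Vehicle animal 2 of that time, at 76 TPM, was above 4 of the 5 low dose livers, and without it the effect was 0.67 (95% interval 0.01 to 1.33, edgeR adjusted p = 0.142). The upper bound also exceeded 2-fold without vehicle animal 3 or without low dose animal 1, 2, 3 or 5, at 1.03 to 1.11 on the log2 scale, so a return to within 2-fold rested on single animals. Its fall between the times at the low dose, -0.98 ± 0.33 (SE, edgeR adjusted p = 0.0312), was not called in 6 of the 10 fits that each left out 1 low dose animal. These were the fits without animal 1, 2, 3 or 5 of the 33 h group or animal 4 or 5 of the 9 h group, with adjusted p between 0.0548 and 0.101.

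The 6 members with the largest rise at both times were near 0 in vehicle livers, and 5 of them were tested. High dose and vehicle levels chose and named these 6, so their high dose ratios, intervals and bounds are a description. ENSCPOT00000038137.1 was at 0 in all 10 vehicle livers. It had 0.695, 0.522, 0, 4.13 and 5 TPM in low dose and 4.99, 4.69, 27.2, 22.1 and 7.43 TPM in high dose livers at 33 h, and 3.21, 6.66, 4.16, 6.35 and 14.6 TPM in low dose and 15.1, 6.49, 18.6, 5.76 and 2.33 TPM in high dose livers at 9 h. Against the floor of 3 counts per library, it was at least 12.2-fold higher than vehicle at the high dose and at least 2.09-fold higher at the low dose at 33 h. At 9 h it was at least 15.1-fold higher at the high dose and at least 9.57-fold higher at the low dose. ENSCPOT00000008335.3 had 12.1, 7.34, 0, 149.8 and 46.5 TPM in low dose and 177, 96.1, 202, 288 and 272 TPM in high dose livers at 33 h, against a single count in the vehicle livers of that time. The ratio of high dose to vehicle counts at 33 h was 1705, with a 95% counting interval of 306 to 67375. That interval does not include the spread between animals and is no test of the rise, since these levels named the transcript. Low dose animal 3 had none of it at 33 h while animal 4 had 149.8 TPM, within the range of the high dose livers.

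ENSCPOT00000000175.3 was present in every treated liver, with 0.484, 0.702, 0.217, 0.273 and 0 TPM in vehicle, 16.4, 15.9, 1.52, 36.4 and 20.9 TPM in low dose and 29.9, 79.1, 122, 236 and 29.6 TPM in high dose livers at 33 h. In the livers of 9 h it had 0.262, 0.564, 1.39, 0.773 and 2.01 TPM in vehicle, 21.4, 15.6, 16.9, 30 and 35.9 TPM in low dose and 81.5, 53.7, 112, 98 and 32 TPM in high dose livers. No treated liver overlapped the vehicle livers of its time, and its low dose effect was 5.33 ± 0.76 on the log2 scale at 33 h (SE, edgeR adjusted p = 1.07e-05) and 4.51 ± 0.69 at 9 h (SE, edgeR adjusted p = 2.24e-05). ENSCPOT00000013672.3 declined, to 1.57, 1.76, 0.778, 2.73 and 2.36 TPM in low dose livers at 33 h against 9.18, 7.34, 7.36, 7.77 and 12.6 TPM at 9 h. That change was -2.54 ± 0.35 on the log2 scale (SE, edgeR adjusted p = 6.04e-06), and the low dose livers at 33 h remained above every vehicle liver, by 3.46 ± 0.49 (SE, edgeR adjusted p = 9.06e-06). ENSCPOT00000047635.1 had 0, 0.632, 0, 1.66 and 0 TPM in low dose livers at 33 h and 2.47, 9.22, 5.18, 6.05 and 11.8 TPM at 9 h. All vehicle livers of 33 h were at 0 and the low dose livers together had 8 counts, so no fold is given there. The call over vehicle (edgeR adjusted p = 0.0471) was lost without low dose animal 2 or 4 or any 1 of the vehicle animals at 33 h, with adjusted p between 0.0701 and 0.248. ENSCPOT00000044139.1, of 78 bases, did not pass the count filter, and averaged 5.74 TPM in high dose livers at 33 h and 43.5 TPM at 9 h from 9 and 65 counts over the groups.

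Between the doses, the high dose livers were higher for most members at both times by the fitted value; the high dose livers chose the members, so this is a description. At 33 h the fit called 186 of 285 higher at the high than at the low dose, where 16.9% of all tested transcripts were called higher. The median was 1.26 on the log2 scale against 0.03 for all tested. At 9 h it called 74, where 2.86% of all tested were called higher, with a median of 0.81 against 0.00 for all tested and 261 of the 285 fitted above 0. None was called lower at the high dose at either time by edgeR or DESeq2, and 0 were lower at an unadjusted p under 0.05. The count at 9 h depended on single animals, being 43 without high dose animal 3 and 45, 47 or 40 without low dose animal 1, 2 or 3, and up to 83 without low dose animal 5. In the same fits 1.34%, 1.60%, 1.67%, 1.46% and 2.65% of all tested transcripts were called higher. The high dose was called above the low dose at both times for 65 members, at 33 h alone for 121, at 9 h alone for 9 and at neither time for 90. These classes held 1.0%, 15.9%, 1.86% and 81.2% of all tested transcripts. Of the 149 members not called above vehicle at the low dose at 33 h, 109 were called higher at the high than at the low dose at that time, as were 77 of the 136 that were called above vehicle; over all tested transcripts the shares were 14.6% and 30.9%.

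The spread between animals of 1 group was described by the coefficient of variation of TPM. Over 5 low dose livers it had a median of 56.7% for the members and 22.2% for all tested transcripts at 33 h, and of 36.5% against 18.2% at 9 h. In high dose livers it was 42.4% for members and 21.7% for all tested at 33 h, and 27.6% against 19.1% at 9 h. Vehicle livers had 39.2% for members and 19.5% for all tested at 33 h, and 44.2% against 18.9% at 9 h. Members were not matched to other transcripts by level, and its part was not tested. At 33 h low dose animal 4 held the highest level of the 5 in 192 of 285 members and animal 3 the lowest in 207. Among all tested transcripts animal 4 was highest in 44.3% and animal 3 lowest in 47.2%, against 67.4% and 72.6% of the members. The TMM factors of the 5 low dose libraries at 33 h were 1.07, 1.10, 0.978, 1.23 and 1.08 in animals 1 to 5, so animals 3 and 4 were also the ends of that range. Median folds of the members over the vehicle mean were 1.89, 2.02, 1.17, 3.95 and 2.49 in TPM and 1.61, 1.68, 1.07, 2.85 and 2.06 after division by the TMM factor. Their part in the results was not tested beyond leaving them out: without animals 3 and 4 together, 150 of 290 members tested were called lower at 33 h than at 9 h, with 9.70% of all tested transcripts, and 112 above vehicle at 33 h, with 11.2% of all tested. In that fit 77 had a smaller low dose effect at 33 h, with 4.40% of all tested, and 168 were higher at the high than at the low dose at 33 h, with 14.2% of all tested.

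High dose animals 3 and 4 at 33 h were highest in 130 and 102 of the 285, and low dose animal 5 at 9 h was highest in 164. Among all tested transcripts these animals were highest in 24.3%, 13.7% and 15.8%. No sex, litter or date is given for the animals, and replicate numbers follow the order of deposit.

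**Figure D5:**
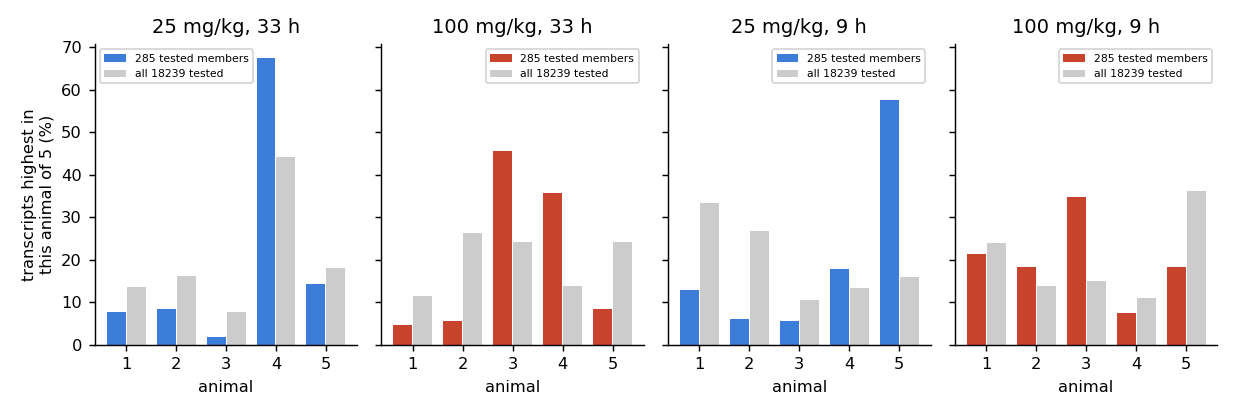
Share of transcripts (percent) for which each animal held the highest TPM of its group of 5, for the 285 tested members (coloured bars) and all 18239 tested transcripts (grey bars), in the low and high dose groups at 33 h and then at 9 h. Low dose animal 4 at 33 h and low dose animal 5 at 9 h hold the highest level in 67.4% and 57.5% of members.

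The edge of the set was not marked by a gap in the ratios. The members just inside had a smaller ratio of 3.01 to 3.02 and the transcripts just outside one of 2.99 to 2.998. ENSCPOT00000042656.1, just inside, averaged 10 ± 1.39 TPM in vehicle, 20 ± 5.39 TPM in low dose and 34.1 ± 7.4 TPM in high dose livers at 33 h (SD, n = 5 each). ENSCPOT00000004757.3, just outside, averaged 230.4 ± 18.8 TPM in vehicle, 476 ± 75.4 TPM in low dose and 689.9 ± 122 TPM in high dose livers at 33 h (SD, n = 5 each). Both were intermediate at the low dose. ENSCPOT00000031733.1 and ENSCPOT00000009638.3 were the others just inside, and ENSCPOT00000014947.3 and ENSCPOT00000008512.3 the others just outside. ENSCPOT00000031733.1 averaged 3.11 ± 1.02 TPM in low dose and 2.80 ± 0.290 TPM in vehicle livers at 33 h (SD, n = 5 each). Its low dose effect was -0.27 ± 0.21 on the log2 scale at 33 h (SE, 95% interval -0.71 to 0.16, edgeR adjusted p = 0.379). At 9 h it was 1.23 ± 0.21 (SE, edgeR adjusted p = 9.37e-05). ENSCPOT00000009638.3 was inside on uneven values, since its vehicle livers at 33 h had 2.19, 0, 0.726, 0 and 0 TPM. The tested transcripts differed in length, members having a median of 1640 bases (quartiles 960 and 2724) against 2537 bases (quartiles 1473 and 4130) for all tested, a difference that was not tested.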

How the data were processed

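Poly-A RNA libraries from liver were made with a kit that keeps strand, and read from both ends, per the labels' protocols. Reads were assigned to transcripts with kallisto 0.42.4, per the submitters' processing notes, by matching short words rather than by genome alignment; the transcript set is not given in the sources used here. Per the file headers each deposited table holds an estimated count and a TPM value per transcript. Those estimated counts, as deposited, carry no normalization, and 48.7% of the positive ones were whole within 1e-06. The TPM deposited by the authors are scaled within a library, so they are shares and not amounts of RNA per liver.

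The members and lists were chosen with earlier results of these data known. Members were found from TPM means of 5 animals per group with 0.1 added. The labels for dose and duration gave the groups; the series describes 30 animals, taken as separate, and replicate numbers only name them in order of deposit. The labels give no batch, so none was fitted. After rounding of the estimated counts, edgeR 4.0.16 (R 4.3.3) was run with filterByExpr by group (minimum count 10, minimum total 15), TMM factors, 1 coefficient per group over all 30 animals, robust quasi-likelihood F tests (24 residual degrees of freedom) and Benjamini-Hochberg adjustment over 18239 transcripts. A standard error is the size of a log2 fold change divided by the root of its F statistic, intervals are at 95%, and the prior count is 0.125. Bounds for groups at 0 use a floor of 3 counts per library; bounds and counting intervals (exact binomial, 95%) cover counting error only. The fit was tested on simulated counts of 16279 transcripts for low dose livers at 33 h against 9 h. It recovered 60 of 100 changed 2-fold and 87 of 100 changed 4-fold, with 5 false calls. Means and dispersions came from vehicle livers only, and no other transcript differed between groups. Members had a median coefficient of variation of 56.7% in low dose livers at 33 h. In vehicle livers it was 39.2% at 33 h and 44.2% at 9 h. The simulated recovery was therefore not shown to hold for the members.

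The reference table, of 37416 genes, matched 0 identifiers, so gene lists, cell type markers and sequences could not be used. Named transcripts are the 8 most abundant members in high dose livers, the 6 with the largest smaller ratio, the 6 with the highest and the 6 with the lowest ratio of low dose 33 h to 9 h (from 1 TPM at 9 h), and 3 on either side of the threshold. Alternatives were size factors by median of ratios, library totals, no count filter, DESeq2 1.42.0, a fit of the compared groups alone, other settings of the selection and each animal left out in turn; leaving out 2 animals together and members of at least 300 bases were added after seeing the data.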

Additional observations from a re-analysis of the deposited data

Results flagged for a closer look

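Of 181 groups of 5 values examined for the named transcripts, those just outside the set included, 20 held an animal set apart from the other 4. By chance about 1 in 20 groups is flagged. In treated livers these were high dose animal 2 at 9 h for ENSCPOT00000022944.2 (356.6 TPM), high dose animal 3 at 33 h for ENSCPOT00000047635.1 (21.8 TPM), high dose animal 4 at 9 h for ENSCPOT00000031733.1 (11.2 TPM), low dose animal 5 at 33 h for ENSCPOT00000044139.1 (3.62 TPM) and low dose animal 5 at 9 h for ENSCPOT00000036303.1 (46 TPM). Low dose animal 4 at 33 h stood apart in 3 members, at 18.4 TPM for ENSCPOT00000038410.1, 15.8 TPM for ENSCPOT00000042913.1 and 3.29 TPM for ENSCPOT00000009801.3.

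In vehicle livers at 33 h the single high values were 76 TPM for ENSCPOT00000025525.2 in animal 2, 0.36 TPM for ENSCPOT00000008335.3 in animal 3, 2.68 TPM for ENSCPOT00000006682.3 in animal 1, 1.11 TPM for ENSCPOT00000036303.1 in animal 3 and 0.258 TPM for ENSCPOT00000015761.3 in animal 1. At 9 h they were 3.17 TPM for ENSCPOT00000044139.1 in animal 3, 0.309 TPM for ENSCPOT00000047635.1 in animal 2, 0.606 TPM for ENSCPOT00000013672.3 in animal 5 and 5.54 TPM for ENSCPOT00000036303.1 in animal 2. The vehicle groups of ENSCPOT00000008335.3 and ENSCPOT00000036303.1 at 33 h held 1 estimated count each. So did the vehicle groups of ENSCPOT00000044139.1 and ENSCPOT00000047635.1 at 9 h and the low dose group of ENSCPOT00000044139.1 at 33 h. In these groups that count alone set the flagged animal apart. Vehicle animal 4 at 9 h stood apart in 3 members, at 12.9 TPM for ENSCPOT00000015761.3, 15.6 TPM for ENSCPOT00000048469.1 and 0.448 TPM for ENSCPOT00000009638.3. Without it the low dose effect of ENSCPOT00000048469.1 was called smaller at 33 h than at 9 h, by -4.24 on the log2 scale (edgeR adjusted p = 0.00947). Of ENSCPOT00000009638.3 the vehicle livers at 9 h had 19 counts over the group, and no fold without animal 4 is given.

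The low dose effect over vehicle differed between the times in 9 of the 29 named members by the test of the difference (33 h minus 9 h, log2, edgeR adjusted p under 0.05). It was smaller at 33 h for ENSCPOT00000012198.3 (-1.33), ENSCPOT00000007668.3 (-2.21), ENSCPOT00000027388.2 (-4.69), ENSCPOT00000009801.3 (-4.47), ENSCPOT00000038707.1 (-4.20), ENSCPOT00000042656.1 (-0.90) and ENSCPOT00000031733.1 (-1.51). It was larger at 33 h for ENSCPOT00000026201.2 (2.36) and ENSCPOT00000046500.1 (2.57). Over all tested transcripts 5.56% were called smaller and 5.77% larger at 33 h by this test. The 6 lowest and the 6 highest by ratio at the low dose were named for that ratio, so their differences are a description.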

How the results depend on the processing

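The number of members followed the settings of the selection: 146 with 1 TPM added in place of 0.1, 156 with a minimum of 5 TPM and 183 at 4-fold, against 299. It was 309 with medians (249 shared) and 212 with TPM divided by the TMM factor (206 shared), and 279 to 323 without each high dose or vehicle animal in turn. Of the 146 members, 143 were tested, and 93 were lower at 33 h than at 9 h (low dose), with 12.7% of all tested transcripts. At the low dose 82 were above vehicle at 33 h and 128 at 9 h, with 14.3% and 13.5% of all tested. The low dose effect was smaller at 33 h in 45, with 5.56% of all tested. The high dose was above the low dose in 107 at 33 h and 44 at 9 h, with 16.9% and 2.86% of all tested. Leaving out each animal in turn gave 135 to 169, 100 to 149, 214 to 232, 64 to 92, 151 to 200 and 40 to 83 for these 6 counts. The other alternatives kept each count within 1.5 times: median of ratios, no count filter, DESeq2, compared groups alone and members of at least 300 bases. With the compared groups alone 93 of the 217 members in that fit were above vehicle at 33 h at the low dose, with 11.9% of all tested. The main fit had 136 of 285, with 14.3%. Without the count filter 65 of 299 were higher at the high than at the low dose at 9 h, with 1.69% of all tested. The main fit had 74 of 285, with 2.86%. Scaling by library totals moved the median of all tested transcripts by up to 0.36 (low dose over vehicle at 33 h), called 183 members there, where 36.9% of all tested were called, and moved the members' median to 1.34, so the return at 33 h depends on the scaling by about that shift. It moved the fall at the low dose less, to 137 members and a median of -1.01 with all tested at 0.14. There 7.75% of all tested transcripts were called lower.

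Of the values of named transcripts under these settings, 2232 kept their side of the threshold, 74 lost a call, 19 gained one and 0 reversed. With the compared groups alone ENSCPOT00000026201.2 and ENSCPOT00000045740.1 were no longer called higher at 33 h than at 9 h (edgeR adjusted p = 0.088 and 0.144), and ENSCPOT00000038410.1 was not called over vehicle at 33 h (adjusted p = 0.113). The differences of ENSCPOT00000007668.3 and ENSCPOT00000046500.1 between times were lost too (adjusted p = 0.0681 and 0.0598), as was the 9 h effect of ENSCPOT00000048469.1 (adjusted p = 0.0685). Library totals ended the fall of ENSCPOT00000025525.2 (adjusted p = 0.0926) and the difference of ENSCPOT00000007668.3 (adjusted p = 0.0644). The call of ENSCPOT00000047635.1 over vehicle at 33 h was lost without the count filter and with DESeq2 (adjusted p = 0.0535 and 0.0935). The causes were not tested. No paired analysis was possible because the replicate numbers follow the order of deposit and pair no animals. With 5 animals a group, rare members have wide intervals: 97 of 285 could be called neither raised nor back within 2-fold of vehicle at 33 h after the low dose.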
